A study of Mus musculus with 2 samples.

Results

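The genes described here encode the machinery that copies DNA and the enzymes that supply its building blocks. They were taken from a list of 47 symbols, through probes whose platform annotation gave exactly 1 of these symbols and that had a value on both arrays. Of the 47 genes, 46 were measured, out of 14150 named genes in all, and Cdt1 was not analysed here. There were 43 genes with 1 probe each and 3 genes (Mcm10, Gins2 and Gins4) with 2 probes, which gave 49 probes. Mouse effector CD8+ T cells of the pmel line, which carries a transgenic T cell receptor against a peptide of the melanocyte protein gp100, were grown in vitro. RNA of cells after 1 stimulation (channel 1) and RNA of cells after 2 stimulations (channel 2) were put together on 2-colour arrays. There were 2 such arrays, labelled as an experiment and its repeat, and no further group. Age, sex and the number of mice are not in the labels, nor is whether the repeat came from a new culture, so the spread between arrays may be technical.

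Each value is the log ratio of the 2 channels for a probe, read here as log2. The sources used here do not name the numerator. The earlier stage comes first both in the titles and in the numbering of the channels. From that order alone, its likely place is the numerator. Read that way, a negative value marks RNA that was more abundant after 2 stimulations. Results are therefore given as sides of the ratio, and the sides swap if the order was the other way round. Both arrays carry the same order of channels, so a bias of the dyes and a difference in RNA cannot be told apart. The cultures are bulk samples, and more cells in DNA synthesis cannot be told apart from more RNA per cell. The measured T cell markers were on the positive side, 7 of 8 of them on both arrays, and their median was 0.47. Of all genes, 29.6% were positive on both arrays and 33.6% negative. For B cell markers 6 of 9 were positive on both arrays, 2 had mixed signs and 1, Blk (-0.05 and -0.04), was negative. The B cell median was 0.165. Highest among these markers were Cd72 (0.57 and 2.19), Cd79b (0.67 and 1.62) and Cd79a (0.31 and 1.06), each farther from 0 on array 2. The 3 genes listed as natural killer cell markers, Klrb1c (-1.32), Nkg7 (-0.36) and Ncr1 (-0.26), were negative on both. Which cells expressed these 3 genes was not tested. Of 6 myeloid and dendritic cell markers, 3 were negative and 1 positive on both arrays, and the 2 CD4 T cell and 2 erythroid markers had mixed signs. Ratios do not show whether a marker was present or absent, and the part of other cells in the results below was not tested.

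DNA replication starts at origins, which the origin recognition complex (ORC) marks and where CDC6 and CDT1 load the MCM helicase in G1 phase. In S phase the kinase CDC7 with its partner DBF4 switches the helicase on by joining it with CDC45 and the GINS complex, and the polymerases follow behind. A resting T cell keeps little of this machinery, and an activated one makes it before it divides, largely under the control of E2F transcription factors. Ribonucleotide reductase makes the deoxynucleotides for the new strands.

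The promoters of these genes were examined for E2F words because the genes share this known regulator. In the RefSeq promoter table (build GRCm38.p6, 250 bases before to 50 after each start), 38 of the 46 measured genes had an entry. The words searched were TTTCCCGC, TTTCGCGC, TTTGCCGC and TTTGGCGC on both strands, and a gene was counted if any of its listed promoters held 1 of them. A word was found for 13 of the 38 genes (34.2%), beside 415 of the 11127 measured genes with an entry (3.73%) and 2.60% of all 27025 genes in the table. By promoter, 27.7% of the 47 promoters of the listed genes held a word. Of the 11800 promoters in the table with a GC content of 52.2% to 65.7%, 3.29% did. This band is the interquartile range of the 47 promoters, and the 27.7% was not limited to it, so the sets are not matched for GC content. These are matches of letters, not measured sites, and genes without a match may hold other forms of the motif.

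The 180 bases just upstream of the start are shown for 2 helicase subunits, for the clamp loader gene with the most negative ratio, for the catalytic subunit of polymerase alpha, and for Orc5, the only listed gene positive on both arrays. Capitals mark the E2F words, and all are written 5′ to 3′ on the strand of the gene in GRCm38.p6.
Mcm5, chr8:75109329-75109508, plus strand: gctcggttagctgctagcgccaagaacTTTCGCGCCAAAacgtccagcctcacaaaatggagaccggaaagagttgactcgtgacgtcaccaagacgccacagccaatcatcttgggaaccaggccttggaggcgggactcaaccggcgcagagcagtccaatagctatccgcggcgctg
Mcm6, chr1:128359706-128359885, minus strand: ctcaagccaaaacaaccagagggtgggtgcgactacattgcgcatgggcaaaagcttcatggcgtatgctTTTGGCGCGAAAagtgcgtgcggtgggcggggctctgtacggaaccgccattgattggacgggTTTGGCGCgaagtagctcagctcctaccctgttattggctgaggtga
Rfc3, chr5:151651209-151651388, minus strand: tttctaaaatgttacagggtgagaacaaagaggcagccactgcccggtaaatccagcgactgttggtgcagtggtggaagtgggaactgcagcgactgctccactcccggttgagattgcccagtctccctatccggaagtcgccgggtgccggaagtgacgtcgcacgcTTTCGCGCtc
Pola1, chrX:93632156-93632335, minus strand: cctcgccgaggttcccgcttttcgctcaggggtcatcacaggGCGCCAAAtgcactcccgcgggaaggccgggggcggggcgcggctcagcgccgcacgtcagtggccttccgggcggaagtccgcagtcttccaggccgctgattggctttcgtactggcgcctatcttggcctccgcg
Orc5, chr5:22550339-22550518, minus strand: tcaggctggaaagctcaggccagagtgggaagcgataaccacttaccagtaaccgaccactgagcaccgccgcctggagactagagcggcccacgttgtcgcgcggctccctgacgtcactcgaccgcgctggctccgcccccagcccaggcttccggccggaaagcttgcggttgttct
In Mcm5 and in the farther site of Mcm6, words on the 2 strands overlap and form a near-palindrome. Mcm6 holds another word nearer the start, and Rfc3 holds 1 that ends just before its start and another that begins at the start and is not shown. The Orc5 window holds none.

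**Figure D1:**
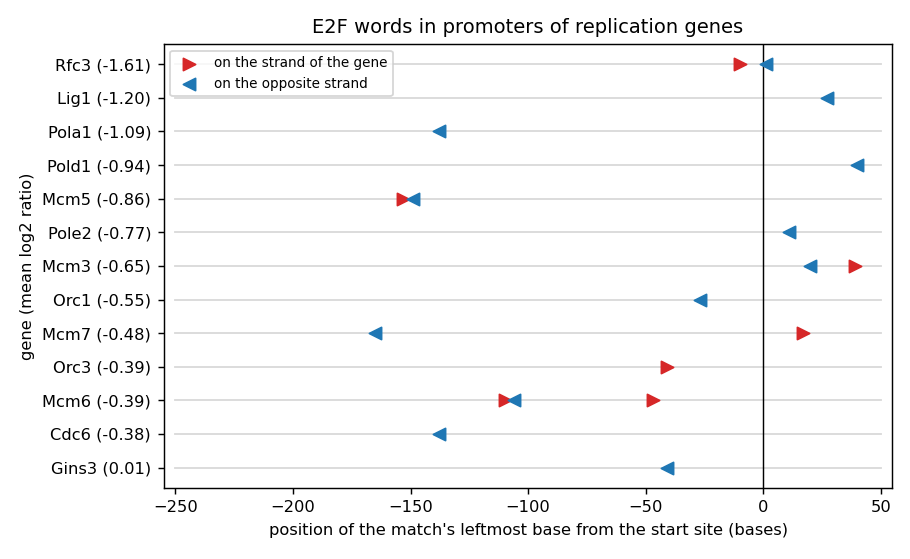
Positions of the E2F words in the promoters of 13 genes, from 250 bases before to 50 bases after the start site (x axis, bases from the start), with genes ordered by mean log2 ratio (in brackets, y axis). Triangles give the leftmost base of each match and point along its strand. The 13 genes run from Rfc3 at -1.61 to Gins3 at 0.015.

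The share of genes with a word followed no single direction with the size of the ratio. Words were found in 2 of 10 genes at least 2-fold on both arrays (20.0%), in Rfc3 and Lig1, and in 11 of the 28 others (39.3%). Among the 10 genes with a mean above -0.25, a part of those 28, only Gins3 held a word. The CCAAT box, letters CCAAT, was found in 60.5% of the 38 genes against 42.1% of measured genes. The cell cycle genes homology region, letters TTTGAA, was found in 18.4% against 15.9%.

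As a group the replication and nucleotide genes lay on the negative side. Both arrays gave a negative value for 38 of the 46 (82.6%), against 33.6% of all genes, and a positive one for 1, against 29.6%. Their median log2 ratio was -0.82, with -0.65 on array 1 and -0.80 on array 2, while the median of all genes was -0.02. A ratio of at least 2-fold on each array, on the negative side, was seen for 11 of the 46 genes (23.9%), against 0.721% of all genes. These 11, which made up 10.8% of the 102 genes that met this rule, were Rfc3, Gins1, Rfc4, Rrm2, Cdc45, Dut, Prim1, Fen1, Lig1, Dbf4 and Rfc5. A further 11 genes were at least 2-fold on the negative side on a single array only, which was not counted over all genes. None met the rule for both arrays on the positive side, against 0.233% of all genes. A mean of -1 or lower was seen for 17 of the 46 genes and for 1.59% of all genes. The list was assembled with earlier results of these data in view, so these counts describe it and carry no test.

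**Figure D2:**
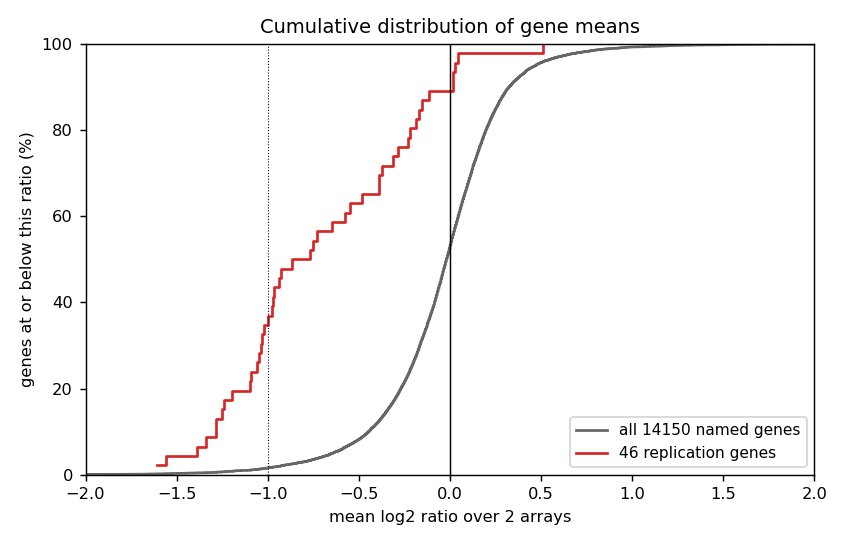
Cumulative share of genes (y axis, %) at or below each mean log2 ratio over the 2 arrays (x axis) for the 46 replication and nucleotide genes (red) and all 14150 named genes (grey). The red curve lies to the left, with a median of -0.82 against -0.02. The dotted line marks a 2-fold ratio, and the x axis is limited to 2 on each side.

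In limma's moderated test of each probe against a ratio of 1, adjusted by Benjamini-Hochberg over all 21427 probes, 0 of the 49 probes passed an adjusted p of 0.05, as did 0% of all probes. The smallest adjusted p was 0.162, shared by 15 of the 49 probes, and the largest was 0.988. At an unadjusted level of 0.05, 31 of the 49 probes (63.3%) stood on the negative side, against 8.0% of all probes, and 1 stood on the positive side, against 6.87%. The 95% confidence interval of a probe's mean had a half-width of 0.366 to 0.777, with a median of 0.399; a mean nearer to 0 than this could not be told from 0. No single gene is therefore called changed, and genes are described by size and by agreement of the arrays.

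The values of these genes were correlated between the arrays. Over the 46 genes, which share the same 2 hybridisations and are not independent, Pearson's r between arrays was 0.759, and over all genes it was 0.519. The difference between arrays had an SD of 0.370 for the listed genes and 0.416 for all genes. Array 2 was the more negative for 26 genes and array 1 for 20, so neither array carried the shift alone. The widest gaps were those of Orc6, with -0.51 and -1.59, and Rpa3, with -0.52 and -1.41.

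**Figure D3:**
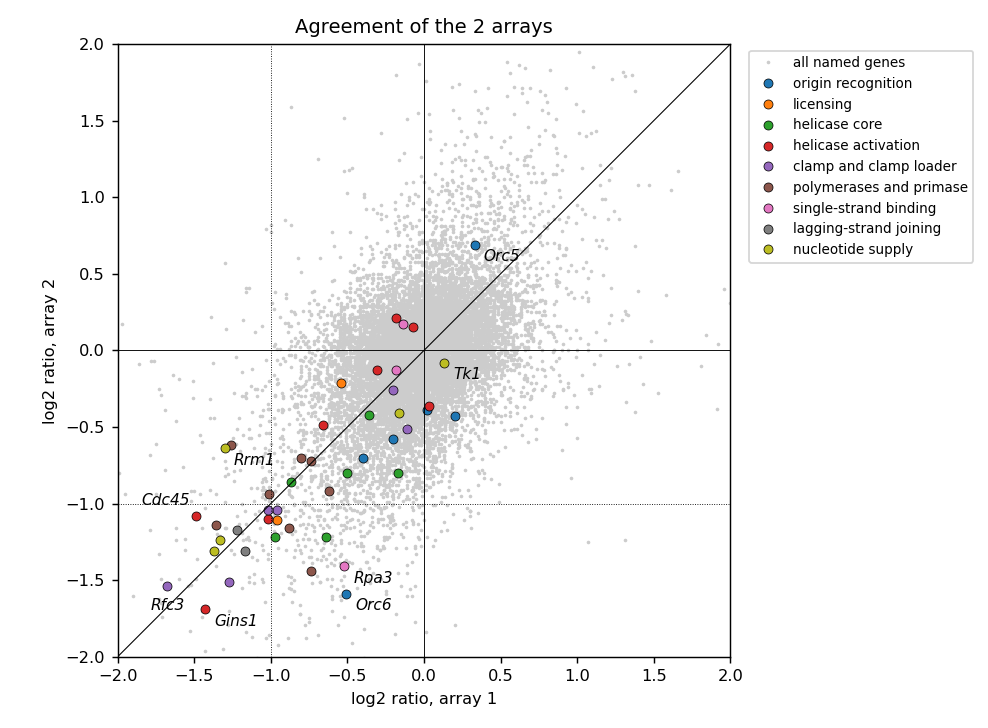
Log2 ratio on array 1 (x axis) against array 2 (y axis) for all named genes (grey) and the 46 replication and nucleotide genes, coloured by role. The 11 genes in the lower left corner beyond both dotted lines were at least 2-fold on both arrays. The solid diagonal marks equal values, and 70 genes beyond 2 on an axis lie outside the plot.

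Origin recognition genes were mixed in sign, with 3 of 6 negative and 1 positive on both arrays. The 6 ORC subunits bind origins together, and the amount of ORC1 is known to follow the cell cycle in mammals. Orc6 read -0.51 on array 1 and -1.59 on array 2, a mean of -1.05 ± 0.76 (SD, n = 2). Orc1, the largest subunit, read -0.40 and -0.70, a mean of -0.55 ± 0.21 (SD, n = 2). Orc3 was also negative on both arrays, with -0.20 and -0.58. Orc2 (0.20 and -0.43) and Orc4 (0.02 and -0.39) changed sign between the arrays. Orc5 read 0.33 and 0.69, a mean of 0.51 ± 0.25 (SD, n = 2), and 95.9% of all genes had a mean at or below it. Its array values did not overlap those of any other subunit. The 95% confidence interval of its mean (half-width 0.4315) did overlap those of Orc2 (0.542) and Orc4 (0.449). The median of the 6 subunits was -0.29, the smallest shift among the roles with at least 5 genes.

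Licensing was measured by a loader and an inhibitor. Cdc6, which loads the helicase onto the origin, read -0.54 and -0.21, a mean of -0.38 ± 0.23 (SD, n = 2). Gmnn encodes geminin, which blocks CDT1 after S phase has begun and so prevents a second round of licensing. It read -0.96 and -1.11, a mean of -1.04 ± 0.11 (SD, n = 2). The inhibitor was thus farther from 0 than the loader on both arrays, and the array values of the pair did not overlap. The 95% confidence intervals of the means did overlap, with half-widths of 0.378 for Gmnn and 0.422 for Cdc6.

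The helicase core genes shared a sign and varied in size. MCM2 to MCM7 form a 6-membered ring that unwinds DNA, and all 6 genes were negative on both arrays. Mcm2 read -0.97 and -1.22, Mcm4 -0.64 and -1.22, and Mcm5 -0.87 and -0.86. Mcm3 read -0.50 and -0.80, Mcm7 -0.17 and -0.80, and Mcm6 -0.36 and -0.42. The means ran from -1.10 ± 0.18 for Mcm2 to -0.39 ± 0.04 for Mcm6 (both SD, n = 2), with an SD over the 6 means of 0.273. None was at least 2-fold on both arrays. The array values of Mcm6 and Mcm2 did not overlap, whereas the 95% confidence intervals of their means did (half-widths 0.368 and 0.399). Mcm6 was the nearest to 0. Its window held 3 E2F words, and a link between words and ratio was not tested.

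Helicase activation genes ranged from far negative values to 0. Gins1, a subunit of the 4-membered GINS complex that bridges the helicase to polymerase epsilon, read -1.43 and -1.69, a mean of -1.56 ± 0.18 (SD, n = 2), or a 2.95-fold ratio. Only 0.254% of all genes had a mean this low. Cdc45, the third part of the active helicase beside MCM and GINS, read -1.49 and -1.08, a mean of -1.29 ± 0.29 (SD, n = 2). Dbf4, which activates the kinase CDC7, read -1.02 and -1.10, while Cdc7 itself read -0.31 and -0.13. The regulatory partner was thus farther from 0 than the kinase on both arrays.

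The other GINS genes lay nearer 0 and their probes disagreed. For Gins2 a probe gave -1.19 and -1.05 and another -0.13 and 0.07. For Gins4 the probes gave -0.42 and -0.65 in the first case and 0.48 and -0.08 in the second. Gins3, on 1 probe, read -0.18 and 0.21. For Mcm10, which helps to separate the paired helicases at the origin, the 2 probes gave means of 0.09 and -0.005. The counts over genes used the mean of both probes, and which probe reports the transcript was not tested.

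The clamp loader split between its large and its small subunits. Replication factor C opens the ring-shaped clamp PCNA and closes it around DNA. It has a large subunit, RFC1, and the small subunits RFC2 to RFC5, which also serve in other loaders such as that of the DNA damage checkpoint. Rfc3 read -1.68 and -1.54, a mean of -1.61 ± 0.10 (SD, n = 2), the lowest of the 46 genes at a 3.05-fold ratio. Rfc4 read -1.27 and -1.51, Rfc5 -1.02 and -1.04, and Rfc2 -0.96 and -1.04. Rfc1, on the other hand, read -0.20 and -0.26, a mean of -0.23 ± 0.04 (SD, n = 2). Every array value of a small subunit was lower than every array value of Rfc1. The clamp gene Pcna read -0.11 and -0.51, a mean of -0.31 ± 0.28 (SD, n = 2), with an adjusted p of 0.451 in limma's test.

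Polymerase and primase genes were the most even role among those with at least 5 genes. All 8 were negative on both arrays, with means from -1.25 to -0.73 and a median of -0.96. Polymerase alpha and its primase lay the first primers: Prim1, the catalytic primase subunit, read -1.36 and -1.14, Prim2 -1.01 and -0.94, Pola1 -0.74 and -1.44, and Pola2 -0.80 and -0.70. For polymerase delta, the main lagging-strand enzyme, Pold1 read -1.26 and -0.62 and Pold2 -0.74 and -0.72. For polymerase epsilon, the main leading-strand enzyme, Pole read -0.88 and -1.16 and Pole2 -0.62 and -0.92. Array values of the 3 enzymes overlapped, so no order among them is drawn. Only Prim1 was at least 2-fold on both arrays.

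Replication protein A coats single-stranded DNA, and its 3 genes read from 0.17 to -1.41. Rpa3, the smallest subunit, read -0.52 and -1.41, while Rpa2 read -0.18 and -0.13 and Rpa1, the largest, -0.14 and 0.17. The array values of Rpa3 did not overlap those of the others. The 95% confidence interval of its mean (half-width 0.673) did overlap those of Rpa2 (0.367) and Rpa1 (0.4155). Behind the lagging-strand polymerase, the flap nuclease gene Fen1 and the DNA ligase gene Lig1 finish each Okazaki fragment. Fen1 read -1.17 and -1.31, a mean of -1.24 ± 0.10, and Lig1 -1.22 and -1.17, a mean of -1.20 ± 0.04 (both SD, n = 2). Each exceeded 2-fold on either array, and their array values overlapped.

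Nucleotide supply genes ranged from -1.34 to 0.025 in their means, with Rrm2 and Dut at the low end, Rrm1 between and Tyms and Tk1 nearest 0. Rrm2, the small subunit that sets the activity of ribonucleotide reductase in S phase, read -1.37 and -1.31, a mean of -1.34 ± 0.04 (SD, n = 2). Its large subunit Rrm1 read -1.30 and -0.64, close to Rrm2 on array 1 and nearer 0 on array 2. Dut encodes dUTPase, which keeps uracil out of DNA and yields the precursor of thymidylate, and it read -1.33 and -1.24, a mean of -1.29 ± 0.06 (SD, n = 2). Tyms, the thymidylate synthase that uses this precursor, read -0.16 and -0.41, a mean of -0.29 ± 0.18 (SD, n = 2). Tk1, the salvage kinase of thymidine, read 0.13 and -0.08, and its adjusted p was 0.949 in limma's test. The array values of Rrm2 and Dut did not overlap those of Tyms and Tk1.

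**Figure D4:**
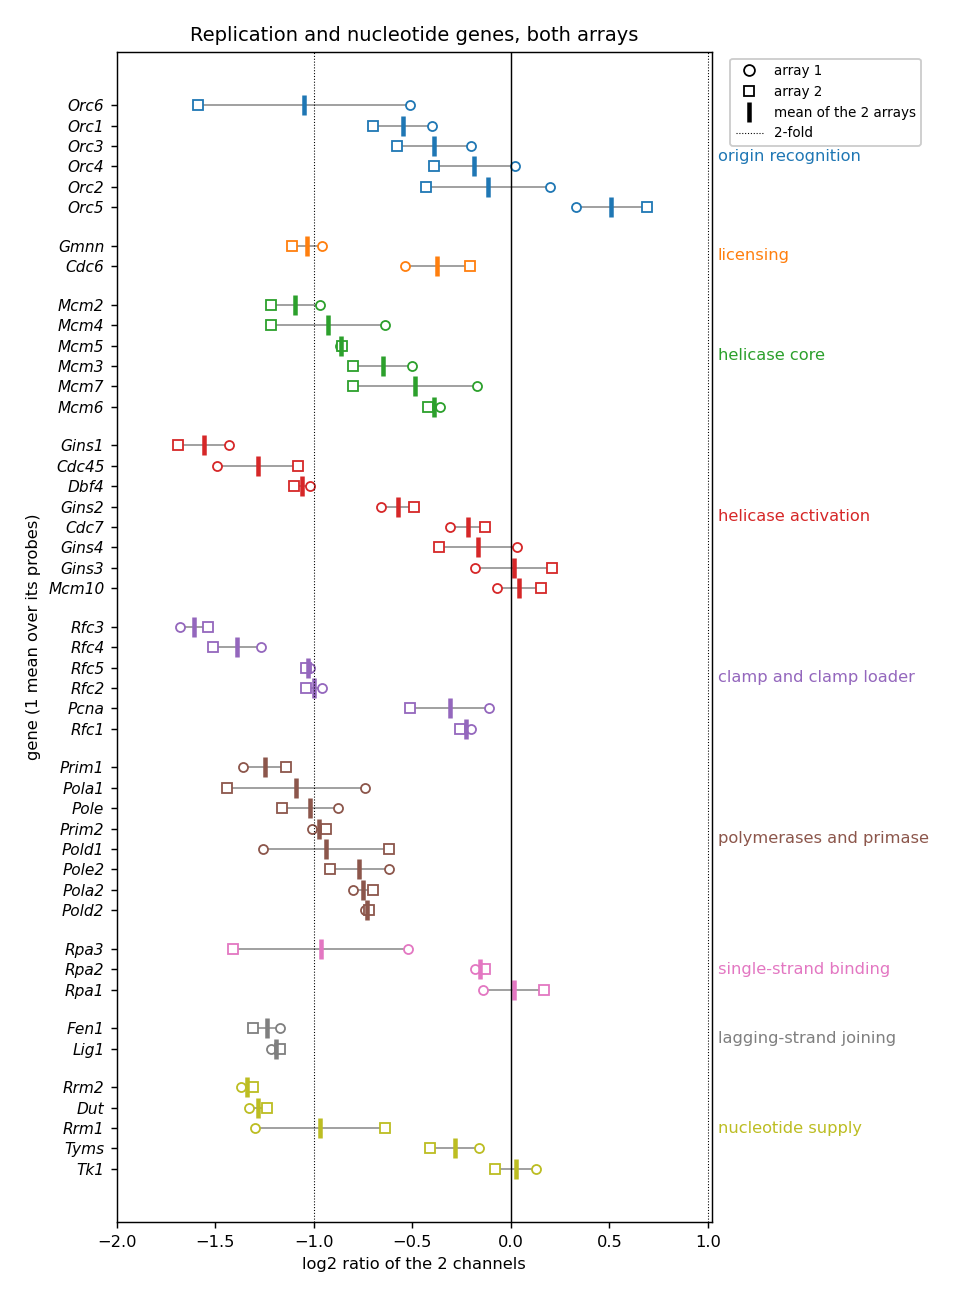
Log2 ratio (x axis) of the 46 replication and nucleotide genes (y axis) on array 1 (circles) and array 2 (squares), with the mean of both as a bar, grouped by role. Dotted lines mark a 2-fold ratio. Means of polymerase and primase genes lie between -1.25 and -0.73, whereas means of origin recognition and helicase activation genes range from below -1 to above 0.

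Genes that work beside these at the fork and in chromatin were compared through lists that hold none of the 46. Among other fork genes 9 of 16 were negative on both arrays and 1 was positive, with a median of -0.24. Tipin, which steadies the fork with TIMELESS, led at -1.12 and -1.87, the only 1 of them at least 2-fold on both arrays. Mcm3ap, whose product binds MCM3, stood at the other end with 0.53 and 0.43. Genes that rebuild nucleosomes and copy DNA methylation were closer to the replication genes, with 10 of 11 negative on both arrays and a median of -0.68. In this list Asf1b, a histone chaperone, read -1.19 on both arrays, and Asf1a, its paralog, read 0.44 and -0.12. The shares compare with 33.6% of all genes negative on both arrays.

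Other enzymes of nucleotide metabolism lay between the replication genes and the rest. Among 13 further deoxynucleotide enzymes, both arrays gave a negative value for 9 and a positive one for 2, and the median was -0.41. The lowest was Shmt1, a folate enzyme that feeds thymidylate synthesis, with -0.80 and -2.02. The highest was Samhd1, which breaks deoxynucleotides down, with 0.83 and 2.23, a mean of 1.53 ± 0.99 (SD, n = 2). The reductase gene Rrm2 and the hydrolase gene Samhd1 were thus on opposite sides on both arrays, with the latter spread more widely. Among 14 genes of de novo purine and pyrimidine synthesis, both arrays gave a negative value for 8 and a positive one for 2, and the median was -0.38. Adsl, of purine synthesis, was the lowest at -0.50 and -0.98 and Ctps2, a CTP synthase, the highest at 0.05 and 0.69. None of these 27 genes was at least 2-fold on both arrays.

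Regulators of entry into S phase held some of the largest ratios and many small ones. Both arrays gave a negative value for 16 of 22 genes and a positive one for 1, and the median was -0.36. E2f1 read -1.73 and -1.33, the cyclin gene Ccna2 -1.52 and -1.53, and Cdkn1a, an inhibitor of cyclin-dependent kinases, -1.72 and -1.65, and these 3 were at least 2-fold on both arrays. The E-type cyclin genes Ccne1 (-0.86 and -1.20) and Ccne2 (-1.79 and -0.68) were negative on both, while their kinase gene Cdk2 stayed near 0 at -0.32 and -0.05. The highest was Cdkn1b, another kinase inhibitor, with -0.13 and 0.82. Mitosis genes had a median of -0.90, with 12 of 16 negative on both arrays, close to the -0.82 of the replication genes. Bub1 (-1.27 and -1.70), Mki67 (-1.62 and -1.24), Ccnb2 (-1.62 and -1.16) and Birc5 (-1.16 and -1.13) each exceeded 2-fold on either array, and Aurkb stood highest with -0.15 and 0.28. The difference between these lists was not tested.

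**Figure D5:**
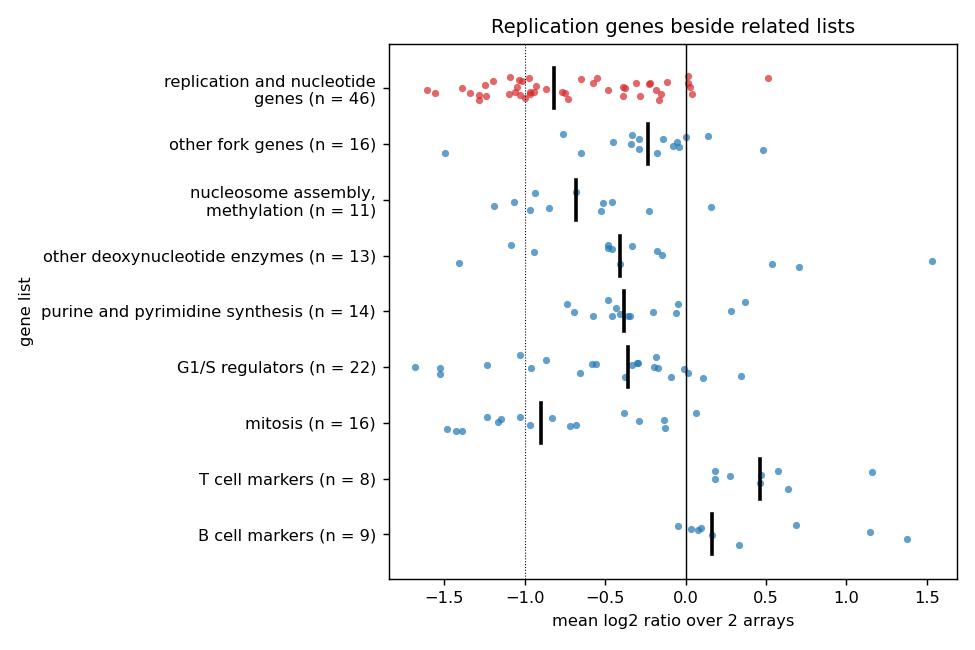
Mean log2 ratio over the 2 arrays (x axis) of each gene (points) in the replication and nucleotide list (red) and in related lists and T and B cell markers (blue, y axis), with the median of each list as a black bar. Medians run from -0.90 for mitosis genes to 0.47 for T cell markers, and the replication genes stand at -0.82. Points are spread vertically only to separate them.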

How the data were processed

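Gene expression was measured on 2 two-colour arrays of mouse CD8+ T cells, 1 group with 2 replicates. The authors deposited 1 signed log2 ratio per probe and array. Base 2 is assumed, and the scanner, background correction and normalization are not given in the sources used here. No intensities were used, which leaves signal over background unknown, and precision is limited by the number of arrays. Of 21919 probes, 21427 had both values. Probes were named from the platform annotation (15998 with 1 symbol, 288 with several, 5633 with none), and probes of a gene were averaged. Every measured member was named. Of related lists, genes at least 2-fold on both arrays, the ends of each list and a fixed set were named, of which Rrm2b was not analysed here and 1 other is not reported here. Members and lists were chosen with earlier results of these data known. limma 3.58.1 in R 4.3.3 fitted an intercept over both arrays (1 residual degree of freedom, prior 3.43), tested two-sided with Benjamini-Hochberg adjustment over all probes. The fit was tested on simulated shifts larger than any mean of the listed genes, and the counting rule on made-up values. This does not show how the fit performs at the sizes reported here. Summaries used Python 3.11.15. The alternatives were median centring, quantile normalization, probes with a single value, other ways to join probes, a robust prior, no moderation, other thresholds, natural logs and leaving out each array.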

Additional observations from a re-analysis of the deposited data

How the results depend on the processing

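Leaving out each array in turn gave a median over the 46 genes of -0.80 and -0.65, against -0.82 with both. The number on the negative side was then 41 (array 1 alone) and 42 (array 2 alone), against 51.6% and 51.0% of all genes. The number on the positive side was 4 to 5, which was not counted over all genes on single arrays. The number at least 2-fold on the negative side was 14 (array 1 alone) to 19 (array 2 alone, without replicate 1). With both arrays 11 genes were at least 2-fold. There were 24 at a 1.5-fold threshold, 0 at a 3-fold threshold and 20 if the values are natural logs, and the cause lies in the threshold itself. The fold counts under these alternatives and on single arrays were not made over all genes. Without the 8 genes measured only by probes of clone accessions, a choice made after seeing the data, 7 of 38 were at least 2-fold, as 4 of the 8 genes left out had met that rule. limma called 24 of the 49 probes, and 814 of all probes, at an adjusted p of 0.2. Without moderation the test called 241 of all probes and 0 of the 49. Keeping probes with a single value, centring on the median, quantile normalization and other ways to join probes left these counts within 1.5 times. Single genes that changed sign were Tk1 without array 1, and Orc2, Orc4, Mcm10, Gins3, Gins4 and Rpa1 without array 2. No test was possible with 1 array, which leaves no residual degree of freedom. Ratios near 0 are limited by the half-width of the intervals, with a median of 0.399.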

Other observations

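Many of these genes lie close together in the order of probe numbers: 26 of the 49 probes had another within 10 places. The 593 probes outside the list within 10 places of a listed probe, named or not, had a median of -0.05. Of them 38.8% were negative on both arrays, against 32.5% of all named probes counted singly. At least 2-fold on both arrays and negative were 0.843% of these neighbours, beside 0.721% of all genes, which were counted by gene mean. Probe numbers are not positions on the slide, which were not used here.

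The kind of sequence a probe was annotated to varied within the list. Of the 8 genes measured only by probes annotated to clone accessions (prefix AK or BC), 3 had a mean within 0.25 of 0 (37.5%), against 7 of the other 38 (18.4%). At least 2-fold on both arrays were 4 of the 8 and 7 of the 38, and negative on both were 62.5% and 86.8%. Among the 8 were Rfc3 and Gins1, the 2 lowest of the 46, and also Mcm10, Gins3 and Rpa1. Over all named probes the share within 0.25 of 0 was 65.5% for clone accessions and 62.1% for the others. At least 2-fold on both arrays and negative were 19 of all 6088 clone probes and 93 of the 9565 others. Negative on both arrays were 29.6% and 34.3% of them. These comparisons were made after the data were seen, and the medians of the 8 and the 38 genes were -0.80 and -0.82. The part of the probe source in the 2-fold count was not tested.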
